A study of Mus musculus with 2 samples.

Results

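The genes described here mark macrophages and other myeloid cells, the phagocytes, monocytes and granulocytes of the innate immune system, in the lung of the mouse embryo. They are a given list of 40 gene symbols, and all 40 were found among the 43346 Ensembl genes of the tables by matching identifiers to GENCODE names. They were placed in 11 groups by their known roles. Total RNA was sequenced from lungs of healthy B6NCrl embryos at embryonic day 15.5, with male and female embryos pooled and no altered allele or treatment named for any sample. The samples form 1 group of 2 libraries, replicate 1 made from 78 embryos and replicate 2 from 62, each from 10 ng of RNA longer than 200 nt with spike-in sequences added. There is therefore no comparison between conditions. The libraries were set against each other to show how well each level is known, and 2 libraries allow no test.

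Macrophages reach the lung before birth in waves, first from the yolk sac and then as monocytes of the fetal liver, and the alveolar macrophages of the adult descend mainly from the latter. Their survival depends on the receptor Csf1r and its ligands, while Csf2 drives the maturation of the alveolar macrophage around birth. The transcription factor PU.1, the product of Spi1, is needed for the expression of many genes of these cells. In whole tissue, fewer cells of a type and less RNA per cell cannot be told apart, so the levels describe the tissue and not a cell.

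The libraries held 40395849.8 and 36601054.1 estimated reads, of which the 40 genes took 0.0751% and 0.0655% of the reads in genes. The label of the tissue was checked against Sftpc, the surfactant gene of the distal lung epithelium, at 6881 and 5864 TPM. TPM is a level per length of transcript, scaled to the same total in each library, so levels can be compared between genes. Markers of neighbouring organs differed between the pools, with thymus and T cell genes higher in replicate 1 and liver genes higher in replicate 2, and their values are given beside the genes they touch. Each TPM comes with an interval from the deposited tables that covers counting and read assignment in that library, and its level is not stated. Values are given as replicate 1 and then replicate 2, or as the mean ± SD of both (n = 2).

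Of the 40 genes, 32 were detected, meaning 1 TPM or more in both libraries, beside 14491 of all 42462 named genes. The median level of the 40 was 7.56 and 7.04 TPM (7.3 ± 0.375), and that of the 32 detected genes, taken after the data were seen, 12.7 TPM. Over the 14491 named genes detected in both libraries the median was 17.7 and 16.9 TPM. By mean level, 8 genes were under 1 TPM, 9 between 1 and 5, 13 between 5 and 20, 9 between 20 and 100, and Lyz2 alone was over 100. Lyz2 held 23.3% and 23.1% of the summed TPM of the list, which came to 742.9 and 641.8 TPM. The 8 genes that were not detected were Csf2, Cd163, Marco, Siglec1, Timd4, Gpnmb, Lyz1 and Mpeg1, and each of them was under 1 TPM in both libraries.

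**Figure D1:**
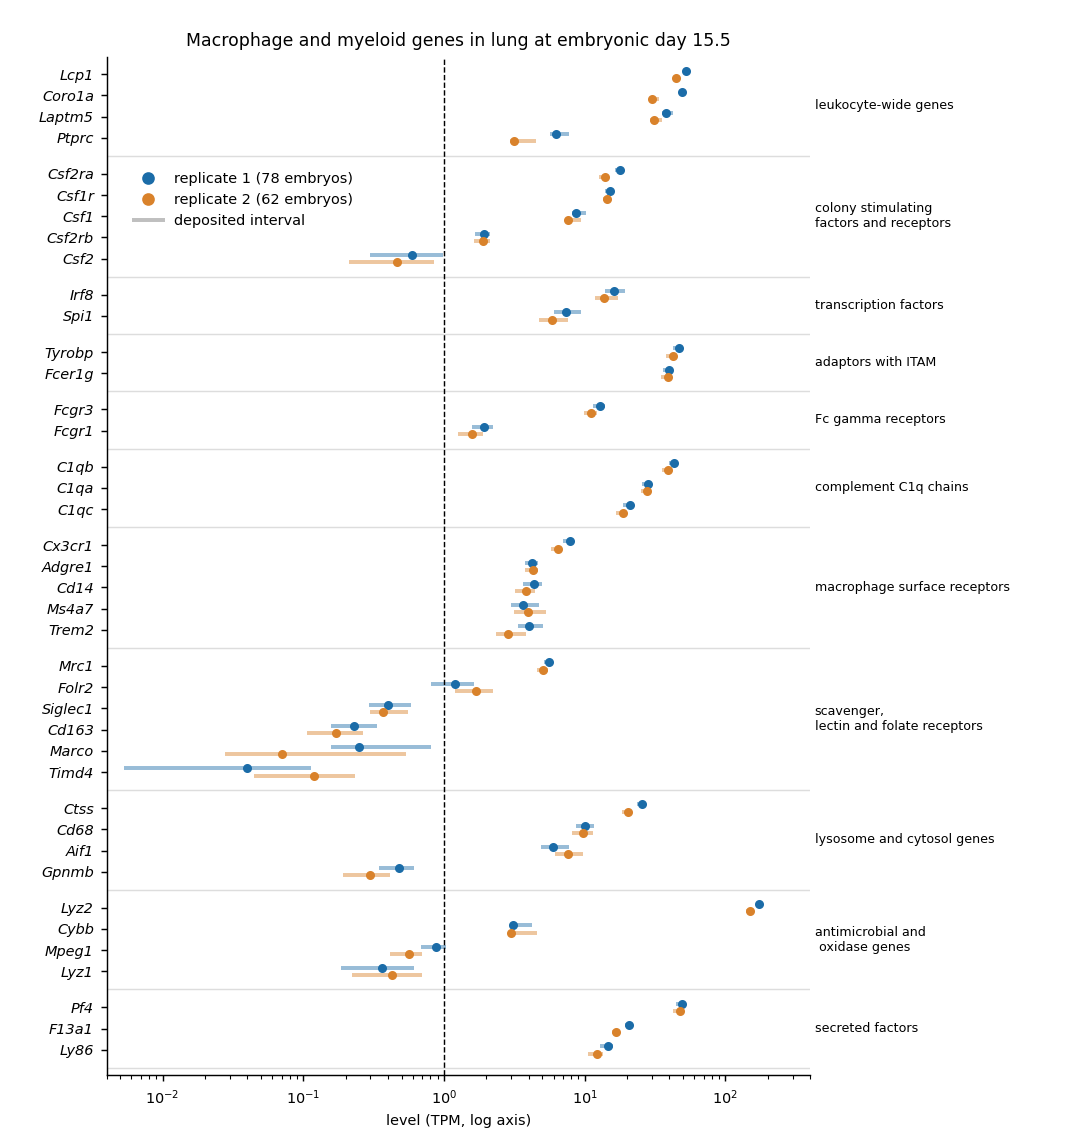
Level of each of the 40 genes in TPM on a log axis, by role. Points are the TPM of each library (blue, replicate 1; orange, replicate 2), pale bars the deposited interval and the dashed line the minimum of 1 TPM. Lyz2 stands alone over 100 TPM, and 4 of the 6 scavenger, lectin and folate receptors lie left of the line.

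The leukocyte-wide genes are expressed in macrophages and lymphocytes alike, and the median of the 4, all of them detected, was 37.2 ± 9.08 TPM. Lcp1, which encodes the actin-bundling protein L-plastin, stood at 52.8 and 44.6 TPM. Coro1a, an actin regulator of leukocytes, stood at 49.2 and 30.3 TPM. Laptm5, a lysosomal membrane protein of blood cells, stood at 38 and 31.2 TPM. Replicate 1 was the higher library for each of these genes. With the intervals of replicate 2 brought to the scale of replicate 1, those of Laptm5 overlapped and those of Lcp1 and Coro1a did not. Ptprc, which encodes the pan-leukocyte phosphatase CD45, was the lowest of the group at 6.2 and 3.13 TPM, from 599 and 298 reads. Its intervals, 5.69 to 7.71 and 2.94 to 4.53 TPM, did not overlap. Coro1a shares 26 exon bases with Bola2 on the opposite strand, and Lcp1 shares exon bases with Gm15628 and Gm15629 in the same way. Whether the counting used strand is not given in the sources used here, so reads in those bases cannot be assigned with certainty.

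The colony stimulating factors and their receptors carry the signals that keep macrophages alive and mature them. Csf1, the main ligand of Csf1r, stood at 8.69 and 7.57 TPM, and Csf1r at 15.1 and 14.4 TPM. Genes of a pair were called different only where their intervals overlapped in neither library and the order was the same in both, which held for 14 of 15 pairs compared. Csf1r exceeded Csf1 by 1.82 ± 0.121-fold. Csf1r shares 873 exon bases with Hmgxb3 on the opposite strand, a gene at 10.8 and 11 TPM, so part of its level is uncertain where strand was not used. Il34, the other ligand of Csf1r and not among the 40, stood at 3.83 and 3.4 TPM, and Csf1 exceeded it by 2.25 ± 0.03-fold with intervals that overlapped in neither library.

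Csf2, the cytokine GM-CSF, stood at 0.59 and 0.46 TPM, from 11 and 8 reads, and was not detected. Csf1 exceeded it by 15.6 ± 1.22-fold. The receptor of Csf2 was present: its ligand-binding chain Csf2ra stood at 17.8 and 14 TPM and its signalling chain Csf2rb at 1.92 and 1.9 TPM. The chains differed 8.32 ± 1.37-fold in level, with the intervals apart in both libraries. Csf2rb has a close copy 20 kb away on chromosome 15, Csf2rb2, which in the mouse encodes the chain specific to interleukin-3. Of all stretches of 30 bases in the transcript Csf2rb-201, 29.7% also occur in Csf2rb2-201, so the split of reads between the copies is uncertain. As deposited, Csf2rb exceeded Csf2rb2 9.6-fold in replicate 1 and 5.43-fold in replicate 2. Of 8 further genes of these and related cytokine systems, 5 were detected, from Kitl (36.1 ± 2.8 TPM), the ligand of the stem cell receptor Kit, down to Csf3r (1.37 ± 0.156). Csf2rb2 (0.275 ± 0.106), the cytokine receptor Flt3 (0.125 ± 0.0778) and the granulocyte factor Csf3 (0 and 0.03 TPM) were not.

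Both transcription factors of the list were detected. Spi1 (chromosome 2, 91082390 to 91115756) stood at 7.31 and 5.81 TPM. Irf8, a partner of PU.1 that is needed for monocyte development, stood at 16.3 and 13.7 TPM. Irf8 was the higher gene in both libraries, by 2.29 ± 0.0935-fold, and for each gene the intervals of the libraries overlapped. All 10 other transcription factors of myeloid cells were detected, between Zeb2 (76.2 and 67.1 TPM) and Ikzf1 (2.69 and 1.74). Zeb2 is also expressed in mesenchyme and Cebpa in the lung epithelium, so these levels do not belong to myeloid cells alone.

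PU.1 binds DNA at a purine-rich element with the core GAGGAA, called the PU box. RefSeq windows of the 250 bases upstream of the gene start, on build GRCm38.p6, were found for 32 of the 40 genes and searched for GAGGAA on both strands. It occurred in 15 of the 32 windows (46.9%), beside 6252 of the 27025 genes in the table (23.1%). Mrc1 held 3 copies and Csf2ra 2, so 2 windows (6.25%) held several, beside 964 of all genes (3.57%). A match of 6 letters is a description of the sequence and no site of binding, and these tables hold no measurement of PU.1 on DNA. The windows shown are those of the 3 genes with the highest mean level among the 8 whose window holds the motif and touches no annotated exon, with the motif in capitals. They lie at chr5:90772185-90772434 on the plus strand (Pf4), at chr4:136886201-136886450 on the minus strand (C1qb) and at chr3:95526536-95526785 on the plus strand (Ctss). Each is written 5′ to 3′ toward the gene, and the Pf4 window holds the motif on its other strand, as TTCCTC.
Pf4: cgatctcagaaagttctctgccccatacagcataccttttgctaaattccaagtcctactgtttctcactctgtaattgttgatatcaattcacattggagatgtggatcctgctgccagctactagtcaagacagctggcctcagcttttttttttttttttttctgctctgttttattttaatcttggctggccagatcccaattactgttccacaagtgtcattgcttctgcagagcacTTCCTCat
C1qb: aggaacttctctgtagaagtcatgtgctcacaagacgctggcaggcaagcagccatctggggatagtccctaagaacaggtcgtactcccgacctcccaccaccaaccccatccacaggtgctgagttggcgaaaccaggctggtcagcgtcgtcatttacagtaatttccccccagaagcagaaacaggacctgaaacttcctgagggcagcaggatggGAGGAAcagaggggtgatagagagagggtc
Ctss: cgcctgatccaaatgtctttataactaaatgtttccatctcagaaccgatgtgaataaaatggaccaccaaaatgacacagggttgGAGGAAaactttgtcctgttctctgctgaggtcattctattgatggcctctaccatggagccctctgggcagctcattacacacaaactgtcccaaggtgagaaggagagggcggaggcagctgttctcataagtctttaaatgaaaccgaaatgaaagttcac

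No window was at hand for Adgre1, C1qa, Cd14, Csf1r, Csf2rb, Siglec1, Spi1 and Tyrobp. The motif nearest to the RefSeq start ends 2 bases before it in Pf4, 24 in C1qb and 158 in Ctss.

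The adaptors with an ITAM, a tyrosine motif that couples receptors to the kinase Syk, were among the most abundant genes of the list. Tyrobp, which encodes DAP12, stood at 47.1 and 42.6 TPM. Fcer1g, the common gamma chain of Fc receptors, stood at 39.5 and 38.8 TPM. Their ratio was 1.14 ± 0.0674, and this was the pair that was not called different, since the intervals overlapped in replicate 2 and not in replicate 1. The gene Hcst, which encodes the adaptor DAP10, lies 126 bases from Tyrobp and stood at 2.01 and 0.6 TPM.

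Both receptors for the constant part of IgG that are on the list were detected. Fcgr3, a low-affinity receptor that signals through the gamma chain, stood at 12.8 and 11.1 TPM, and Fcgr1, the high-affinity receptor, at 1.91 and 1.58 TPM. Fcgr3 was the higher gene by 6.86 ± 0.216-fold. Of the 30-base stretches of Fcgr3-201, 18.1% also occur in Fcgr2b-201, the inhibitory receptor 74.6 kb away, and none in Fcgr4-201. Of 14 genes of Fc receptor and ITAM signalling, 11 were detected, the kinase gene Lyn being the highest at 33.4 ± 1.58 TPM. The lowest was Fcgr4 at 0.455 ± 0.148 TPM, and Fgr (0.595 ± 0.0212) and Hcst also missed the minimum.

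The 3 chains of C1q, the recognition molecule of the classical complement pathway, are made mainly by tissue macrophages. Their genes lie next to each other on chromosome 4, with gaps of 2.85 kb between C1qa and C1qc and 3.62 kb between C1qc and C1qb. C1qb (136880129 to 136886187) was the highest at 43.1 and 38.9 TPM. C1qa (136895917 to 136898803) stood at 28 and 27.8 TPM, and C1qc (136889804 to 136893065) at 20.8 and 18.6 TPM. The order was the same in both libraries, without overlap of the intervals of any pair. C1qb exceeded C1qa by 1.47 ± 0.1-fold and C1qc by 2.08 ± 0.0154-fold, and C1qa exceeded C1qc by 1.42 ± 0.107-fold. The assembled C1q molecule holds the chains in equal number, and these values are of RNA only.

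Of 9 partners of C1q in the complement system, 8 were detected, and the median of the 9 was 2.81 ± 0.0778 TPM. C4b (0.23 ± 0.184 TPM), which encodes the substrate of the C1 complex, was the lowest and was not detected.

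All 5 macrophage surface receptors were detected, at a median of 4.08 ± 0.219 TPM. Cx3cr1, the receptor for fractalkine, was the highest at 7.82 and 6.5 TPM. Adgre1, which encodes F4/80, stood at 4.23 and 4.29 TPM, and Cd14, a co-receptor for bacterial lipopolysaccharide, at 4.36 and 3.84 TPM. The tetraspan protein gene Ms4a7 stood at 3.67 and 3.92 TPM. Trem2, a lipid receptor that signals through Tyrobp, was the lowest by mean at 4.01 and 2.85 TPM, from 125 and 94 reads. Once replicate 2 was brought to the scale of replicate 1, the intervals of the libraries overlapped for each of the 5 genes, while those of Cx3cr1 were apart as deposited (7.02 to 8.23 and 5.78 to 6.92 TPM), and the levels of Adgre1, Cd14, Ms4a7 and Trem2 cannot be put in order from these data. Tyrobp exceeded Trem2 by 13.3 ± 2.26-fold.

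The scavenger, lectin and folate receptors separate kinds of resident macrophages, and only Mrc1 and Folr2 of the 6 were detected. Mrc1, the mannose receptor CD206, stood at 5.61 and 5.09 TPM. Folr2, folate receptor beta, stood at 1.2 and 1.7 TPM, from 31 and 41 reads. The intervals of the libraries overlapped for both genes. Folr2 shares 975 exon bases with Gm10602 on the opposite strand, which stood at 3.4 and 3.31 TPM, so its level is uncertain.

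The other members of that group were under 1 TPM in both libraries. Siglec1, a sialic acid receptor also called CD169, stood at 0.4 and 0.37 TPM, from 53 and 55 reads. TPM is a level per length, and Siglec1 had more reads than the detected Folr2. Cd163, the haemoglobin scavenger receptor, stood at 0.23 and 0.17 TPM, from 27 and 18 reads. Marco, a scavenger receptor of mature alveolar macrophages, stood at 0.25 and 0.07 TPM, from 12 and 3 reads. Timd4, a phosphatidylserine receptor of long-lived resident macrophages, stood at 0.04 and 0.12 TPM, from 2 and 6 reads. Marco was higher in replicate 1 and Timd4 in replicate 2, and the intervals overlapped for all 4 genes, so at these depths neither order is shown. Mrc1 exceeded Cd163 by 27.2 ± 3.92-fold in both libraries without overlap.

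Among the lysosome and cytosol genes, Ctss, the cathepsin S of antigen processing, was the highest at 25.7 and 20.3 TPM. Cd68, a lysosomal glycoprotein, stood at 10.1 and 9.75 TPM. Aif1, which encodes the actin-binding protein IBA1, stood at 5.94 and 7.62 TPM, with intervals that overlapped. Among the 32 members averaging 1 TPM or more, Aif1 was 1 of 11 with a higher scaled level in replicate 2. Gpnmb, a glycoprotein of lipid-laden macrophages, stood at 0.48 and 0.3 TPM and was not detected. All 11 further lysosomal genes were detected, with Cst3 the highest at 450.2 ± 21.5 TPM, and their median was 146.1 ± 3.83 TPM. These are expressed in most cell types.

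The antimicrobial genes hold the highest member of the list and 2 that were not detected. Lyz2 (chromosome 10, 117277331 to 117282321), the lysozyme of macrophages, stood at 173 and 148 TPM and ranked 975th among 42462 named genes. Lyz1 (chromosome 10, 117287797 to 117292868), the lysozyme of Paneth cells of the gut, lies across a gap of 5.47 kb. It stood at 0.36 and 0.43 TPM, from 11.21 and 12.21 estimated reads. Lyz2 exceeded Lyz1 480.6-fold in replicate 1 and 344.8-fold in replicate 2. Lyz2 is also expressed in the distal lung epithelium, so its level does not belong to macrophages alone.

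Because the lysozyme genes are near-identical copies, it matters where their sequences differ. Their coding sequences are 447 bases long with the stop codon, 425 of which are the same (95.1%), and the longest stretch without a difference is 118 bases. Of the 30-base stretches of the transcript Lyz1-201, 35.4% also occur in Lyz2-201. The coding part of exon 1 holds 14 of the 22 differences and is shown 5′ to 3′ for both genes on the minus strand of GRCm38, with the differing bases in capitals. It lies at chr10:117292703-117292838 in Lyz1 and at chr10:117282107-117282242 in Lyz2.
Lyz1: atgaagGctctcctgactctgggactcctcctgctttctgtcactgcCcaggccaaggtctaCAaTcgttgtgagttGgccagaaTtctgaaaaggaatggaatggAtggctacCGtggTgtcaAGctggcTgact
Lyz2: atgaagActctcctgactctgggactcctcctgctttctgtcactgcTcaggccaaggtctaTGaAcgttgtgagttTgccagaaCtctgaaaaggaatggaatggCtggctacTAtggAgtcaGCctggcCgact

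A read over a capital letter can be assigned to one of the genes, and a read within a shared stretch cannot. The small level of Lyz1 is therefore uncertain.

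Cybb, the membrane subunit of the phagocyte NADPH oxidase, stood at 3.1 and 2.99 TPM. Mpeg1, a pore-forming protein of macrophages, stood at 0.87 and 0.56 TPM, from 97 and 58 reads, and was not detected, with intervals of 0.691 to 1.03 and 0.415 to 0.697 TPM. All 5 oxidase partners were detected. The highest was Cyba at 171.7 ± 3.03 TPM, which exceeded Cybb by 56.4 ± 2.44-fold. Cyba encodes the p22phox chain that other oxidases outside phagocytes also use.

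The secreted factors were all detected. Pf4, a chemokine of platelets that macrophages also make, stood at 49.2 and 47.3 TPM. F13a1, the A chain of coagulation factor XIII made by macrophages and megakaryocytes, stood at 20.6 and 16.7 TPM. Ly86, which encodes the MD-1 partner of the receptor RP105, stood at 14.7 and 12.2 TPM. The intervals of the libraries overlapped for Pf4 and Ly86, and those of F13a1 did not. Of the 9 genes of megakaryocytes and platelets, 7 were detected with a summed level of 28.2 and 30.7 TPM, led by Itga2b (7.54 and 7.87) and with Gp6 (0.65 ± 0.0424) under the minimum. Ppbp, the platelet chemokine gene 2.37 kb from Pf4, stood at 4.28 and 6.55 TPM. The part of platelets in the levels of Pf4 and F13a1 was not tested.

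For the difference between the libraries, TPM was scaled by TMM, a factor that centres the ratio of most genes, and replicate 2 was divided by replicate 1 to give a log2 ratio for each gene. A gene was called apart when its mean was 5 TPM or more, its scaled levels differed 2-fold or more and its deposited intervals did not overlap. By this rule 0 of the 23 members over that level were apart, beside 41 of 11214 named genes (0.366%). With a minimum mean of 1 TPM it was 0 of 32 members, beside 1.07% of all genes. With 1.5-fold in place of 2-fold it was 1 of 23, beside 0.758%, and that gene was Coro1a, with a log2 ratio of -0.63.

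**Figure D2:**
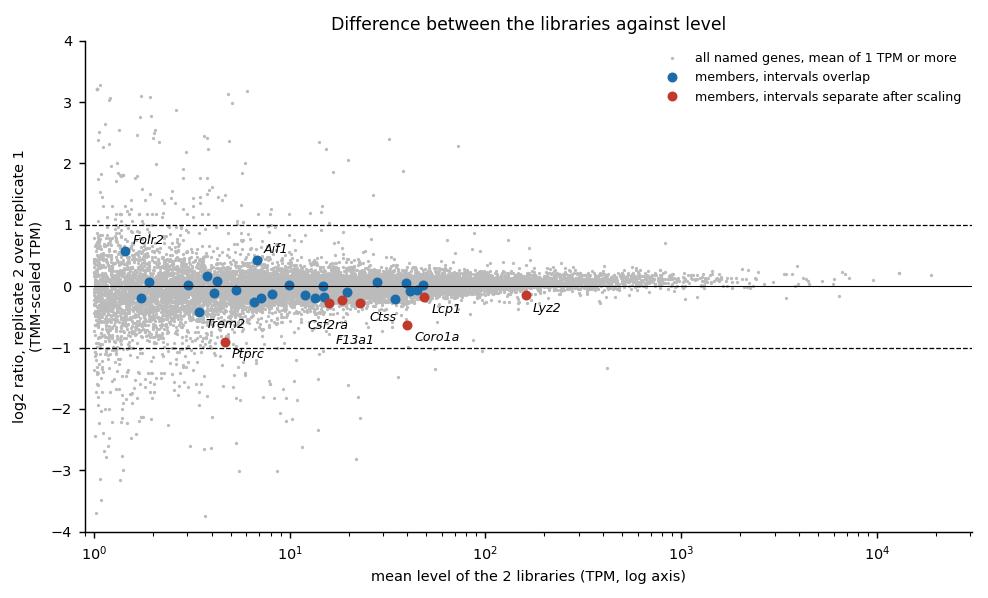
Log2 ratio of replicate 2 over replicate 1 (TMM-scaled TPM) against the mean level in TPM on a log axis, for all named genes averaging 1 TPM or more (grey) and the 32 members among them (blue, or red where the scaled intervals separate). Dashed lines mark 2-fold, 10 genes lie outside the drawn range, and the members lie between -0.91 (Ptprc) and 0.57 (Folr2).

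Most members nonetheless stood slightly lower in replicate 2. The scaled level was lower there for 21 of 32 members (65.6%), beside 48.4% of all genes over the minimum of 1 TPM on average, and the median log2 ratio was -0.12 for the members and 0.006 for all genes. Scaled by spike-in reads instead, the medians were -0.30 and -0.174. The scaled intervals separated for 7 of 32 members (21.9%), beside 11.8% of all genes. These were Ptprc, Coro1a, Csf2ra, Ctss, F13a1, Lcp1 and Lyz2, each of them lower in replicate 2, with log2 ratios from -0.91 for Ptprc to -0.15 for Lyz2. The SD of the log2 ratio over all named genes was 0.658 between 1 and 5 TPM, 0.268 between 5 and 20, 0.145 between 20 and 100 and 0.0975 above. Coro1a lay 4.34 such SDs from 0, and Ptprc, Lcp1, Csf2ra, Ctss, F13a1 and Lyz2 lay between 0.853 and 1.87 SDs.

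By role, the 4 leukocyte-wide genes had the lowest median log2 ratio, at -0.42, and all 4 were lower in replicate 2. Without them, a choice made after the data were seen, the median of the other 28 members that averaged 1 TPM or more was -0.09. The other groups ran from the transcription factors at -0.22 to the scavenger, lectin and folate receptors at 0.25, both medians of 2 genes. Between them lay the secreted factors (-0.19), the Fc gamma receptors (-0.17), the macrophage surface receptors (-0.11) and the C1q chains (-0.08). So did the antimicrobial and oxidase genes (-0.07), the colony stimulating factors and receptors (-0.06), the adaptors (-0.01) and the lysosome and cytosol genes (0.02). The values of the Fc gamma receptors, the adaptors and the antimicrobial and oxidase genes also rest on 2 genes each. The 0.25 comes from Mrc1 (-0.07) and Folr2 (0.57), so the order of the groups is uncertain.

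**Figure D3:**
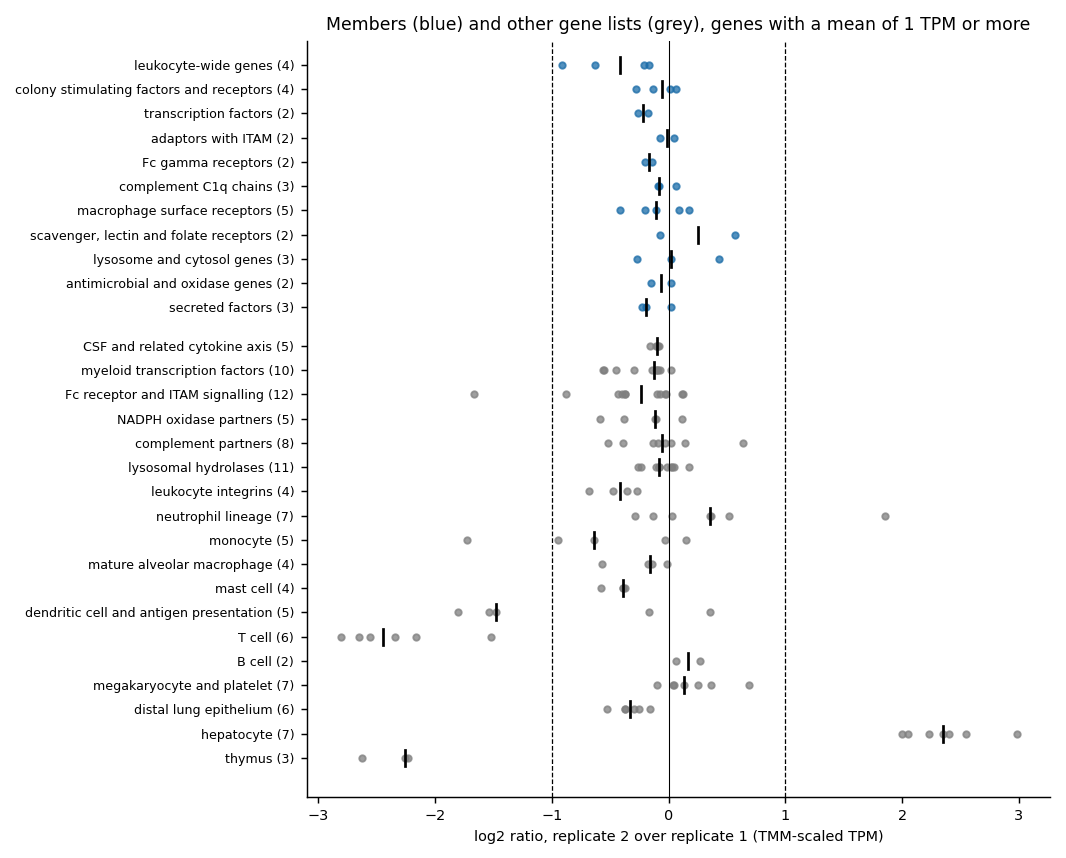
Log2 ratio of replicate 2 over replicate 1 (TMM-scaled TPM) for each gene averaging 1 TPM or more, by role for the members (blue) and by list for other genes (grey). Bars are medians, dashed lines mark 2-fold and the number of genes is in brackets, and T cell, thymus and hepatocyte genes lie beyond 2-fold while the members lie within it.

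T cell and thymus genes were lower in replicate 2 by more than the leukocyte-wide genes. Of 8 T cell genes, 5 were detected and the same 5 were apart, Cd3e, Cd3g, Trbc1, Trbc2 and Lck, the highest being Trbc2 at 38.2 and 5.2 TPM. The summed level of the 8 was 116.2 and 22.8 TPM and the median log2 ratio of the 6 that averaged 1 TPM or more was -2.45, with Cd3d (6.33 and 0.96 TPM), Cd8a (0.67 and 0.05) and Cd4 (0.22 and 0.06) under the minimum. Of 5 thymus genes, Ptcra alone was detected (6.89 and 1.06 TPM), and Rag1, Foxn1, Psmb11 and Dntt (0.15 and 0.04, the lowest) missed the minimum. The summed level of the 5 thymus genes was 15.1 and 2.69 TPM. The leukocyte integrins, 4 of 5 detected, had a median of -0.42, between Itga4 (6.12 ± 1.02 TPM) and the undetected Itgax (0.055 ± 0.0212). Of 6 B cell genes, Cd79b (3.52 and 3.49 TPM, the highest) and Vpreb1 were detected, Cd79a and Igll1 were under the minimum and Ms4a1 was listed at 0. Ptprc, Coro1a, Laptm5 and Lcp1 are expressed in T cells as well as in macrophages, and the part of T cells in their difference was not tested.

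Some genes used to identify macrophages, picked after their values were seen, stood close together in the libraries. Log2 ratios were 0.01 for Csf1r, 0.02 for Cd68, 0.09 for Adgre1, -0.07 for Mrc1 and -0.20 for Cx3cr1, and the scaled intervals overlapped for each of them. Other macrophage genes of the list differed more, such as Folr2 (0.57), Aif1 (0.43) and Trem2 (-0.42), with scaled intervals that overlapped. Of the leukocyte-wide genes, Coro1a was 1.55-fold and Ptprc 1.89-fold higher in replicate 1, while Lcp1 (-0.17) and Laptm5 (-0.21) lay near Cx3cr1. The genes named first therefore do not stand for all macrophage genes of the list.

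Antigen presentation genes differed too, with H2-Ab1 (35 and 9.58 TPM), H2-Aa (16 and 5.21) and Cd74 (53.5 and 18.2) all apart. Ctss, whose product trims the Cd74 protein during antigen loading, was lower in replicate 2 by a log2 ratio of -0.27, far less than the -1.48 of Cd74. Of the other dendritic cell genes on that list of 9, Zbtb46 and Batf3 were detected, while Clec9a, Siglech, Ccr7 and Xcr1 (0 and 0.03 TPM, the lowest) were not. All 5 monocyte genes were detected at a median log2 ratio of -0.64, with Vcan, also a mesenchymal gene, highest (47.1 and 49.7 TPM) and Ly6c2 lowest (3.18 and 1.57). The monocyte receptor gene Ccr2 stood at 6.36 and 5.92 TPM.

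Liver genes ran the other way. Of 8 hepatocyte genes, 6 were detected and apart, Afp (10.7 and 53.6 TPM, the highest), Alb, Apoa1, Apoa2, Ahsg and Serpina6, and Fgb and Apob (0.07 and 0.67, the lowest) were under the minimum. The median log2 ratio of the 7 that averaged 1 TPM or more was 2.35. Apoa2 lies 3.19 kb from Fcer1g, whose log2 ratio was 0.05. The markers of the liver macrophage, Cd5l (0.1 and 0.15 TPM), Vsig4 (0.06 and 0.06) and Clec4f (0 and 0.02), were not detected in either library, at a summed level of 0.16 and 0.23 TPM. The part of liver macrophages in the levels of the C1q genes was not tested.

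Of 11 neutrophil genes, 5 were detected, with S100a8 highest at 22.6 and 30.8 TPM and Ctsg lowest at 0.04 and 0.05. Their summed level was 42.3 and 53.8 TPM, and the median log2 ratio of the 7 that averaged 1 TPM or more was 0.35. The scaled intervals separated for S100a8 and for Mpo (0.6 and 2.06 TPM), both higher in replicate 2. Of 8 mast cell genes, 4 were detected, Cpa3 being the highest at 6.22 and 4.58 TPM, and Mcpt4, Tpsab1, Ms4a2 and Fcer1a (0 and 0.17 TPM, the lowest) were not. Mast cells also express Fcer1g, and their part in its level was not tested. Of 8 genes of the mature alveolar macrophage, Fabp4 (12.2 and 7.83 TPM, the highest), Ear2, Pparg and Ccl6 were detected, while Siglecf, Car4, Chil3 and Ear1 (0.18 and 0 TPM, the lowest) were not. Marco and Csf2 of the 40 genes, which belong to the same mature state and its signal, were likewise under the minimum. Fabp4 and Pparg are also expressed in other cells of the lung, such as endothelium and epithelium. The distal epithelial genes, all 6 detected from Sftpc down to Lamp3 (11.4 ± 3.3 TPM), had a median log2 ratio of -0.33, and the part of this epithelium in the difference of Lyz2 was not tested.

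Transcript tables gave the share of each gene's TPM that its annotated transcripts hold. Of the 32 detected members, 11 have a single transcript in the tables and 21 have several. In all 21 the same transcript led in both libraries by the deposited TPM and was protein-coding, and in 17 of them it held 50% or more in both. By the posterior mean TPM it was 14, and the leading transcript differed between the libraries for Aif1 and Csf1. For Aif1 the retained intron transcript Aif1-205 then led in replicate 2, with 45.1%. Fcer1g-201 held 98.7% and 95.5% of its gene and Mrc1-201 97.4% and 95.4%. Cybb-201 held 93.3% and 93%, and 78.8% and 71.3% by the posterior mean.

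**Figure D4:**
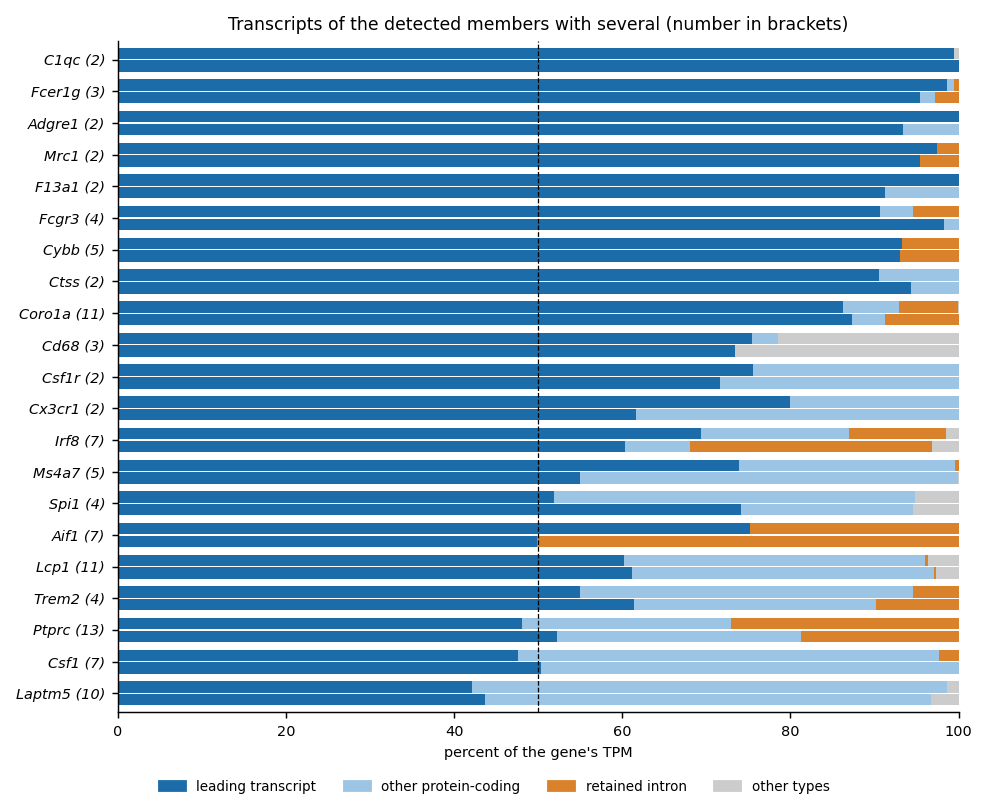
Percent of each gene's TPM held by its leading transcript, other protein-coding transcripts, retained-intron transcripts and other types, for the 21 detected members with several transcripts. The upper bar of each pair is replicate 1, the lower bar replicate 2, and the dashed line marks 50%, which Laptm5 misses in both libraries.

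Csf1 was split between forms that differ in their protein. Csf1-201, with 1656 coding bases in GENCODE M21, held 47.6% and 50.4%, and Csf1-202, with 771, held 36.3% and 40.8%. Splicing of Csf1 is known to give secreted and membrane-bound proteins. Csf1r-202 held 75.5% and 71.6%, and its other transcript has the same coding length of 2931 bases.

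Ptprc is spliced differently in different leukocytes through exons 4 to 6, which give the isoforms CD45RA, RB and RC. The leading transcript Ptprc-203, at 48% and 52.3%, lacks these 3 exons with their 417 coding bases and encodes the CD45RO form. The longest form, Ptprc-207, which holds them all, was at 1.07% and 0%. Ptprc-204, which lacks 1 exon more, was at 12.3% and 14.4%. With 599 and 298 reads over 13 transcripts the smaller shares are poorly known.

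Retained-intron transcripts held 10% or more in both libraries for Aif1, Irf8 and Ptprc. For Aif1 they held 24.9% and 50.1%, for Irf8 11.6% and 28.8% and for Ptprc 27% and 18.8%. Aif1 and Irf8 had the larger share in replicate 2 and Ptprc in replicate 1, but these shares are poorly known. The TPM intervals were 0.0014 to 2.94 and 1.51 to 5.61 for Aif1-205, and 0.00112 to 3.48 and 1.61 to 5.89 for Irf8-202. Those of the libraries overlapped for both transcripts and came near 0 in replicate 1, so the order of the libraries is uncertain. Aif1 rests on 102 and 104 reads over 7 transcripts. Total RNA includes unspliced transcripts, and the source of these shares was not tested.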

How the data were processed

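Total RNA of the 2 lung pools had been quantified by the authors, who deposited 1 gene table and 1 transcript table per library. The deposited expected counts are estimated reads per feature and need not be whole, per the file headers. The deposited TPM and FPKM values are levels per effective length, per the file headers, and the tables add a posterior mean TPM and a TPM interval, used here as a signal with a lower and an upper bound. The deposited transcript tables give the percent of a gene's TPM that a transcript holds. Build mm10 and GENCODE M4 stand in the text deposited with the tables. The program, its version and its strand setting were not given in the sources used here. Libraries differing in depth, annotation version and read sharing between near copies can shift low levels in particular.

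Names, types and positions came from GENCODE M21 on GRCm38 by identifier without version, which matched 97.96% of the 43346 Ensembl identifiers, and 67 of the 131 transcripts of the members have another version there. The 97 spike-in sequences and 26248 numbered features (71 and 66 reads) stayed out of the library sizes and comparisons. Of the 40 members, 6 share exon bases with another gene of the tables. TMM scaling (edgeR 4.0.16, R 4.3.3) used expected counts rounded to whole numbers, as did DESeq2 1.42.0 size factors in an alternative. The members, the other lists and the pairs were chosen with earlier results of these data known. The genes of a list given with values are its highest and lowest, those apart between the libraries and, for 5 or fewer, those not detected, and every member is named. Some genes of these lists are not reported here. Flt3l, 1 of the 149 genes on the other lists, had no feature of that name and was not analysed here. The labels give the libraries separate biological replicate numbers, and each pool has a single library, so pool, extraction and library preparation cannot be told apart. Without molecular identifiers, reads are not independent molecules, so the intervals cover counting and assignment alone.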

Additional observations from a re-analysis of the deposited data

How the results depend on the processing

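Of the settings tried, 39 values that answer a comparison and 57 values for the ratios of the 15 pairs stayed within a limit. The limit was the SD of the 2 libraries for levels and pair ratios, and 1.5 times the count for counts. For the median log2 ratio it was 0.375, the SD over all genes above 1 TPM. The move from -0.12 to -0.30 lay within that. This limit is the spread of single genes and is larger than the size of the median itself, so it is a loose one. A change of scaling adds the same constant to the log2 ratio of every gene, so those settings move the members and all genes alike. With 2 libraries, a level or pair ratio with a replicate left out always lies within their SD of the mean, so those settings could not exceed the limit. The median level of the members moved from 7.3 to 7.7 TPM when TPM was rescaled over named genes only, and was 12.7 TPM over detected members only, a choice made after the data were seen. Members apart went from 0 to 1 (Coro1a) with 1.5-fold. All genes apart went from 41 to 161 with a minimum of 1 TPM, 333 with no minimum and 85 with 1.5-fold, which admit more genes by construction, and were 61 by an exact binomial test of the counts. Leaving out a replicate left 32 members detected, gave a median of 7.04 to 7.56 TPM, 14 to 15 pairs called different and 18 to 19 members with a leading transcript at 50% or more. The median log2 ratio of the members stayed below 0 in all settings, from -0.30 with spike-in reads to -0.07 without the 7 members whose intervals separate, the latter added after the data were seen. Spike-in scaling moved the median of all genes from 0.006 to -0.174. On posterior mean TPM the ratio of Csf1 to Il34 was 2.16 in place of 2.25, Csf1 to Csf1r 0.604 in place of 0.55 and Cybb to Cyba 0.0218 in place of 0.0177. Scaling the intervals of replicate 2 before comparing them, also added, gave 0 members and 40 genes apart. Comparisons of the libraries cannot be computed with a replicate left out. No paired analysis was possible because there is a single group. The members under 1 TPM rest on 2 to 97 reads, and depth limits those with few reads in particular.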
